A study of Mus musculus with 10 samples.

Results

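The comparison set blood RNA of mice after 120 h of SASD against blood RNA of mice after 24 h of SASD, to describe what 5 days of the procedure left in the blood transcriptome relative to 1 day. SASD is named in the study's design only as a sleep restriction method reported before. The pair makes up 2 of the 10 libraries of the series and was chosen by its labels, by a time gap of whole days and because both libraries were on the haemoglobin-rich side. That both hold much haemoglobin RNA is thus part of the choice and no result. The remaining ones came from SD, which stands for sleep deprivation, at 6, 12, 24 and 48 h, from SASD at 6, 12 and 48 h, and from controls named Con with a time of 0 h. Both groups of the pair were C57/BL6J mice, and their samples were labelled as blood with leukocyte as the cell type. Blood (500 μL a mouse) was drawn from behind the eye under pentobarbital (80 mg/kg) into EDTA tubes, and RNA of 3 mice of a group was pooled. The sources used here state neither the procedure behind SASD nor the age and sex of the mice nor the clock time of sampling. Each time was a separate group of mice with a single pooled library, so the difference between the libraries has no replicate check and no test was possible.

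Blood RNA comes from white cells, platelets and red cells. Young red cells, the reticulocytes, have lost their nucleus but still carry messenger RNA, most of it for haemoglobin, for the enzymes that make haem and for the membrane skeleton, and they lose it as they mature. Platelets carry RNA packed by megakaryocytes, their parents in the bone marrow. In bulk blood, fewer cells of a type and less RNA per cell cannot be told apart.

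SASD 120 h held 10110229 counts and SASD 24 h 7825120, the fewest of the 10 libraries (highest 27501393). The labelled cell type was only part of what the libraries held. Defining markers of B cells, T cells, NK cells, monocytes and neutrophils were detected in both, but so were all 5 platelet and all 5 erythroid markers. Summed over 5 erythroid markers, the level was 31208 CPM in SASD 120 h and 80598 CPM in SASD 24 h (CPM, counts normalised to library size after TMM scaling over all 10 libraries). The neutrophil precursor markers Mpo and Elane had 0 counts in both libraries, as did the eosinophil marker Epx. Among 7 markers of endothelium, skin and epithelium the summed level was 7.98 CPM in SASD 120 h and 18.4 CPM in SASD 24 h. Olfactory receptor genes, which blood is not known to use, had a count for 2.73% of 1134 genes in SASD 120 h and for 2.65% in SASD 24 h at equal depth, against 53.1% in Con and 38.4% in SASD 48 h. Levels in those other libraries, and the order of libraries by level, are therefore given beside the pair as a description only. For genes named because of their ratio in the pair, a low or high place of SASD 24 h or SASD 120 h in that order comes in part from the choice.

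Of 11104 genes measured in the pair (mean count 25 or more), 336 were 2-fold or more higher in SASD 120 h (3.03%) and 714 were 2-fold or more lower (6.43%). These counts used the log2 ratio with a prior count of 2, and they are the background for every gene list below under TMM scaling. The median log2 ratio of all genes was 0.05, and the middle 90% of genes lay between -1.15 and 0.86. When counting error alone was considered, the whole 95% interval of the ratio lay past 2-fold higher for 62 genes (0.558%) and past 2-fold lower for 460 genes (4.14%). The split depended on the scaling. The globin, erythroid and platelet lists together took 5.46% of counts in SASD 120 h and 12.5% in SASD 24 h. With totals in place of TMM, all genes shifted by 0.33 on the log2 scale. Then 1106 genes were 2-fold or more higher (9.96%) and 421 lower (3.79%). With upper-quartile scaling 1.71% were higher and 8.2% lower. List counts under these scalings are read against these shares. List medians are therefore read against the median of all genes.

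**Figure D1:**
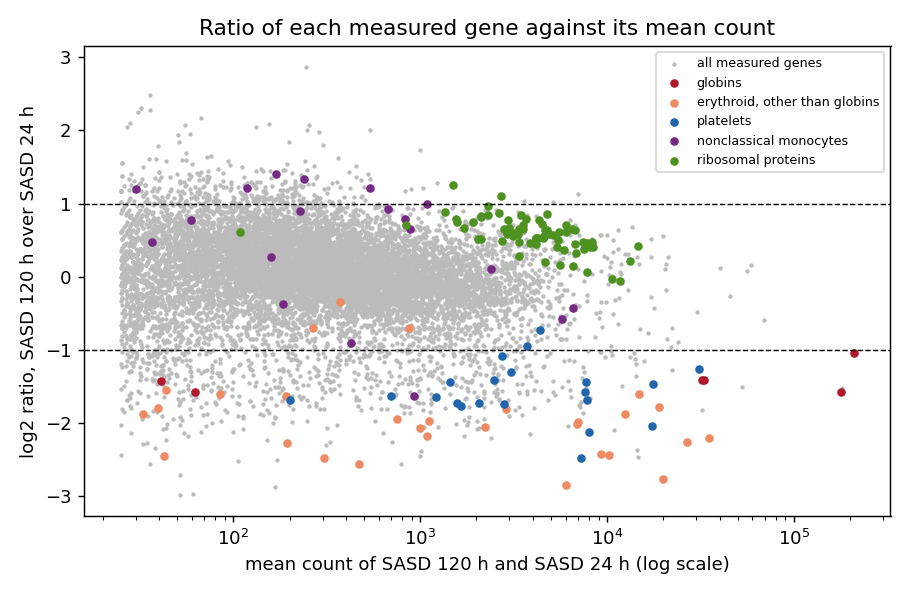
Each point is a measured gene, with its mean count in the pair on the x axis (log scale) and its log2 ratio of SASD 120 h over SASD 24 h on the y axis; coloured points are members of 5 gene lists and dashed lines mark 2-fold. The erythroid, globin and platelet genes lie low across the whole range of counts, the 69 ribosomal protein genes lie mostly between 0 and 1, and the nonclassical monocyte genes spread from -1.63 to 1.40.

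Red cell transcripts were lower in SASD 120 h than in SASD 24 h. All 6 measured globin genes and 26 of 29 measured erythroid genes were 2-fold or more lower, and none was higher, against backgrounds of 6.43% and 3.03%. The median log2 ratio was -1.42 for the globins and -1.99 for the erythroid genes. Haemoglobin genes took 3.57% of all counts in SASD 120 h (exact Clopper-Pearson 95% interval 3.56 to 3.58) and 6.96% in SASD 24 h (6.94 to 6.98). The erythroid list took 0.959% of counts in SASD 120 h and 3.35% in SASD 24 h.

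The upstream sequences of 4 of these genes are shown because genes of this group moved together and are known to share the binding factors GATA1 and KLF1 in red cell precursors. They are the 250 bases before the RefSeq transcription start on GRCm38.p6, 5′ to 3′ on the gene's own strand, with 2 letter patterns in capitals, each searched on both strands. One is AGATAA, known as a site of GATA factors. The other is CCACCC, one form of the CACCC sites that KLF1 is known to bind. Other forms of either site were not searched or marked. Examples are CCACACCC in the Hbb-bs window and TGATAA in the Hba-a1 window. Alas2 lies at chrX:150547167-150547416, plus strand, Epb42 at chr2:121036878-121037127, minus strand, Hbb-bs at chr7:103827929-103828178, minus strand, and Hba-a1 at chr11:32283422-32283671, plus strand.
Alas2: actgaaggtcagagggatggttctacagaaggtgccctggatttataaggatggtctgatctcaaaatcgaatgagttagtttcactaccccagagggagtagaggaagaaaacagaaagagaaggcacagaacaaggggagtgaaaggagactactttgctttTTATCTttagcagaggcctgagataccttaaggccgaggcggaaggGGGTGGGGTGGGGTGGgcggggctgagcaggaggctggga
Epb42: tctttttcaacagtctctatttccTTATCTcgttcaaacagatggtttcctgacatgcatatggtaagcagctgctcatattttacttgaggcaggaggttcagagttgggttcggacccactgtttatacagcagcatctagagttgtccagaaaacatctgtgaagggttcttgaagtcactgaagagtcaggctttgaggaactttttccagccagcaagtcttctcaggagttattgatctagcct
Hbb-bs: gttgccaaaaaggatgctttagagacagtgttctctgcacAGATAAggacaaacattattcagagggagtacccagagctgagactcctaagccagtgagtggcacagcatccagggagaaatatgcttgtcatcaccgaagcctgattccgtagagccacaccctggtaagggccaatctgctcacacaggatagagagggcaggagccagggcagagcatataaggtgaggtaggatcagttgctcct
Hba-a1: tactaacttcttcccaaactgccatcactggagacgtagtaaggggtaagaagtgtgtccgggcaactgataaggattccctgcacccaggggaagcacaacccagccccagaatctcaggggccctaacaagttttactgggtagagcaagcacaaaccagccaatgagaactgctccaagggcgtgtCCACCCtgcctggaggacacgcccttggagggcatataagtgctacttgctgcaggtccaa
In windows reaching 50 bases past the start, the AGATAA pattern was present in 6 of the 19 erythroid genes with a window (31.6%), in 6 of 15 platelet genes (40%) and in 1 of 6 globin genes. Of 8650 measured genes with a window 6.49% held it, and of all 27025 windows 11.4%. The CCACCC pattern was present in 47.4% of the erythroid, 33.3% of the platelet and 50% of the globin windows, and in 36.1% of those of measured genes. A match of letters describes the window and shows no binding, and a window without a match may hold another form of the site.

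Among the globins, Hba-a1, an adult alpha chain of haemoglobin, had 11855 CPM in SASD 120 h, against 35197 CPM in SASD 24 h. Its ratio was 0.337 (95% counting interval 0.335 to 0.339). Hba-a2, its near-identical copy, had a ratio of 0.374 (0.368 to 0.3801). Hbb-bs, an adult beta chain, had 17371 CPM in SASD 120 h, against 35751 CPM in SASD 24 h, a ratio of 0.486 (0.483 to 0.489). The other adult beta chain, Hbb-bt, was lower still at 0.377 (0.371 to 0.383). Reads of such copies can be split between them in counting, so the values within each pair are uncertain. With total-count scaling Hbb-bs was at 0.613 and no longer past 2-fold, and 5 of the 6 globins were. The minor theta chains Hbq1a and Hbq1b had 30 counts in SASD 120 h, against 52 in SASD 24 h, a ratio of 0.354 (0.218 to 0.565), for the first, and 43 counts in SASD 120 h, against 82 in SASD 24 h, a ratio of 0.322 (0.217 to 0.471), for the second. The embryonic Hbb-bh1 had 0 counts in both libraries, and Hba-x had 2 counts in SASD 120 h, against 0 in SASD 24 h.

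The haem synthesis genes Alas2 and Fech and the membrane genes named next had lower ratios than the globins. Alas2, which catalyses the first step of haem synthesis in red cells, had 1712 CPM in SASD 120 h, against 7908 CPM in SASD 24 h, a ratio of 0.216 (95% counting interval 0.213 to 0.2201). Fech, which inserts iron into haem, had 409 CPM in SASD 120 h, against 2186 CPM in SASD 24 h, a ratio of 0.187 (0.181 to 0.194). Slc4a1, the band 3 anion exchanger of the membrane (chromosome 11, 102348824 to 102366203, mm10), had 209 CPM in SASD 120 h, against 1500.0 CPM in SASD 24 h, a ratio of 0.139 (0.133 to 0.146). The interval of Slc4a1 lay wholly below that of every adult globin. The membrane skeleton genes Ank1 and Epb42 stood at 0.168 (0.143 to 0.196) and 0.177 (0.145 to 0.214). Tent5c, a poly(A) polymerase gene, had 726 CPM in SASD 120 h, against 4923 CPM in SASD 24 h, a ratio of 0.147 (0.144 to 0.151).

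Bpgm, which makes the 2,3-bisphosphoglycerate that lowers the oxygen affinity of haemoglobin, stood at 0.328 (0.32 to 0.336). Bnip3l, needed to clear mitochondria from maturing reticulocytes, stood at 0.271 (0.264 to 0.279). Ube2o, a ubiquitin enzyme that removes ribosomal proteins from reticulocytes, had 627 CPM in SASD 120 h, against 3462 CPM in SASD 24 h, a ratio of 0.181 (0.176 to 0.186). The erythroid regulator Gata1, also used by megakaryocytes, had 12.3 CPM in SASD 120 h, against 38.4 CPM in SASD 24 h, a ratio of 0.3202 (0.257 to 0.397). The 3 members that were not 2-fold lower were Xpo7 and Fbxo7, each at a log2 ratio of -0.70, and Tfrc. Tfrc, the transferrin receptor, which other dividing cells also use, had 39.4 CPM in SASD 120 h, against 50.04 CPM in SASD 24 h. The count of 26 was the same under all 5 other scalings.

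Across the SASD libraries, Alas2 was at 389.6 CPM in Con and 4379, 3661, 7908, 147 and 1712 CPM in SASD 6, 12, 24, 48 and 120 h. Hba-a1 was at 1622 CPM in Con and 25283, 21006, 35197, 644 and 11855 CPM in SASD 6, 12, 24, 48 and 120 h. Summed over the erythroid list, levels were 3501 CPM in Con and 23385, 18943, 40169, 1890 and 9098 CPM in SASD 6, 12, 24, 48 and 120 h. SASD 24 h was thus the highest of all 10 libraries for this list, and SASD 120 h lay between SASD 48 h and SASD 12 h.

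**Figure D2:**
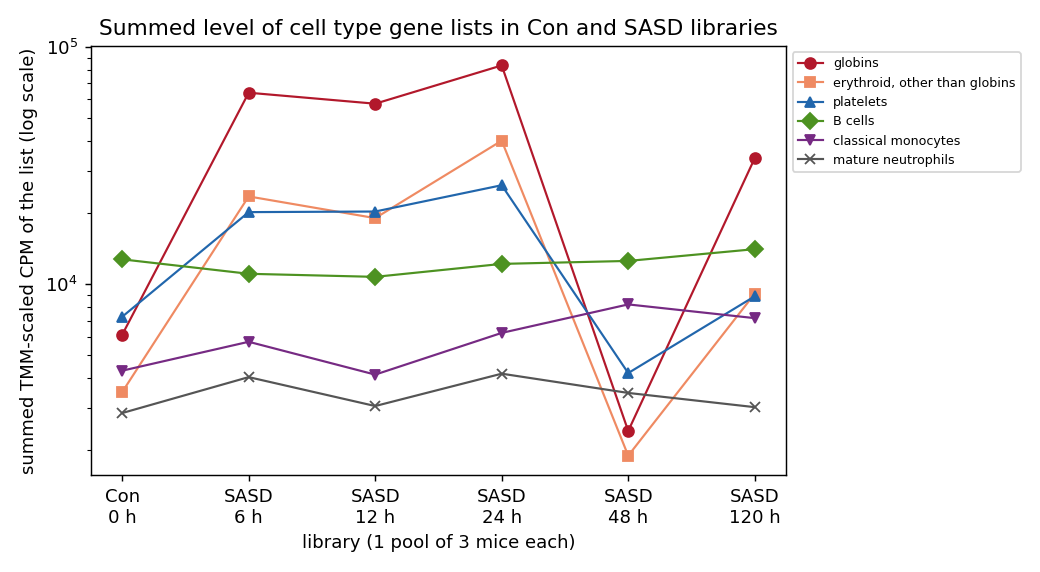
Summed CPM of 6 cell type lists (y axis, log scale) in Con and the 5 SASD libraries in order of time (x axis, 1 library a point, no error bars because no group has a replicate). The globin, erythroid and platelet sums vary by far more between libraries than the B cell, monocyte and neutrophil sums, and are highest in SASD 24 h, lowest in SASD 48 h and between these in SASD 120 h.

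Platelet transcripts were lower as well. Of 21 measured platelet genes 19 were 2-fold or more lower in SASD 120 h and none was higher, with a median log2 ratio of -1.62. The list took 0.935% of counts in SASD 120 h and 2.18% in SASD 24 h. Total-count scaling left 16 of them 2-fold lower and upper-quartile scaling 20. Vwf, the von Willebrand factor that tethers platelets to a vessel wall, had 309 CPM in SASD 120 h, against 1729 CPM in SASD 24 h, the lowest ratio of the list at 0.179 (95% counting interval 0.172 to 0.186). The fibrinogen receptor subunits Itga2b and Itgb3 stood at 0.244 (0.238 to 0.2496) and 0.2304 (0.223 to 0.239). Of the receptor for that factor, Gp1ba stood at 0.301 (0.279 to 0.325) and Gp9 at 0.377 (0.356 to 0.399). The granule chemokines were less far apart, with Ppbp at 0.363 (0.355 to 0.371) and Pf4 at 0.5201 (0.497 to 0.544). Pf4 and Gng11, a G protein subunit at 0.602 (0.577 to 0.628), were the 2 members short of 2-fold.

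Within the platelet list longer genes had lower ratios, with a Spearman rho of -0.66 over 21 genes of the same pair of libraries. Itga2b was at 828 CPM in Con and 2559.9, 2449, 3793, 442 and 925 CPM in SASD 6, 12, 24, 48 and 120 h. The platelet sum was 7273 CPM in Con and 20080, 20198, 26070, 4212 and 8872 CPM in SASD 6, 12, 24, 48 and 120 h. Platelet genes outside the list were chosen after their values were seen. They were Slc6a4, the serotonin transporter, at 0.334 (0.313 to 0.355), and P2rx1, an ATP receptor, at 0.303 (0.277 to 0.331). Mpig6b, an inhibitory receptor, stood at 0.2598 (0.243 to 0.277).

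Several other lists held red cell or platelet genes among their lower members. In the coagulation and complement list 3 of 17 genes were 2-fold lower, namely F5 at 0.337 (0.322 to 0.354), Thbs1 at 0.369 (0.357 to 0.381) and Cd59a, and its median log2 ratio was -0.25. Among 24 oxidative stress genes 6 were 2-fold lower and none higher, with a median of -0.43. They were the glutathione synthesis subunit Gclm at 0.304 (0.286 to 0.323), catalase (Cat) at 0.326 (0.313 to 0.339), Gpx1 at 0.383 (0.371 to 0.396), Prdx2 at 0.427 (0.395 to 0.462), Srxn1 and the cystine transporter Slc7a11. Red cells are rich in catalase and in the peroxidases of Gpx1 and Prdx2. Hmox1, which breaks down haem, had 21.5 CPM in SASD 120 h, against 17.3 CPM in SASD 24 h. Catalase was at 238 CPM in Con and 726, 608, 1055, 174 and 344 CPM in SASD 6, 12, 24, 48 and 120 h, highest in the library with the highest erythroid sum. How far the erythroid RNA accounts for these values was not tested.

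In the iron list 3 of 15 genes were 2-fold lower, among them Ncoa4, the receptor that delivers ferritin for breakdown, at 0.217 (0.203 to 0.231). The p53 and apoptosis list had a median of -0.04. Of its 21 genes 1 was 2-fold higher and 1 lower, shares near those of all genes. The lower was Bcl2l1, the survival factor of late erythroid cells, at 0.256 (0.239 to 0.274). The higher was the cell death gene Bax, at 2.35 (1.97 to 2.83). The proliferation list had a median of -0.01, and 3 of its 21 genes were 2-fold lower, Ube2c at 0.244 (0.206 to 0.287), Ccna2 at 0.244 (0.1499 to 0.386) and Nusap1 at 0.337 (0.287 to 0.396). Mki67, a general marker of cycling cells, had 9.29 CPM in SASD 120 h, against 11.02 CPM in SASD 24 h. Ube2c was at 5.68 CPM in Con and 51.8, 41.3, 78.96, 2.36 and 19.2 CPM in SASD 6, 12, 24, 48 and 120 h, again highest in SASD 24 h. Of 8 measured histone genes 3 were 2-fold lower, with a median of -0.76.

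Neutrophil genes divided. Of 24 measured mature neutrophil genes 6 were 2-fold or more lower (background 6.43%) and none higher, and the median log2 ratio was -0.49. With total-count scaling 2 of the 24 were past 2-fold. Summed over 6 neutrophil markers, the level was 1687 CPM in SASD 120 h and 2072 CPM in SASD 24 h. Hdc, which makes histamine, had 39.1 CPM in SASD 120 h, against 124 CPM in SASD 24 h, a ratio of 0.316 (95% counting interval 0.28 to 0.356). Grina stood at 0.4198 (0.398 to 0.443), the receptor Trem1 at 0.443 (0.366 to 0.536), the collagenase Mmp8 at 0.454 (0.409 to 0.504) and Retnlg at 0.496 (0.449 to 0.548). Mrgpra2b, which has close copies, stood at 0.256 (0.13 to 0.479). The chemokine receptor Cxcr2 had 188 CPM in SASD 120 h, against 306 CPM in SASD 24 h. Csf3r, the receptor for the growth factor of neutrophils, had 649.9 CPM in SASD 120 h, against 973 CPM in SASD 24 h. The abundant calcium-binding pair did not follow. S100a8 had 307 CPM in SASD 120 h, against 237 CPM in SASD 24 h, a ratio of 1.296 (1.22 to 1.38), and S100a9 had 473 CPM in SASD 120 h, against 419 CPM in SASD 24 h, a ratio of 1.13 (1.08 to 1.19).

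Of 9 measured granule and precursor genes 3 were 2-fold lower, and their median log2 ratio of -0.41 lay below that of all genes in 12 of 13 settings but turned to 0.23 with a minimum mean count of 100. Lcn2, an iron-sequestering granule protein, had 32.1 CPM in SASD 120 h, against 142 CPM in SASD 24 h, a ratio of 0.226 (0.199 to 0.256). The other members lower by 2-fold were Ltf and Ngp, also of the granules, which stood at 0.491 (0.361 to 0.665) and 0.482 (0.344 to 0.673). Of the 9 members 4 lay above the median of all genes, the highest being Ly6c2, also a monocyte gene, at 1.78 (1.57 to 2.02). The summed level of the list was 3639 CPM in SASD 120 h and 2881 CPM in SASD 24 h. Summed over the 5 neutrophil precursor markers, the level went the other way, with 14.5 CPM in SASD 120 h and 28.9 CPM in SASD 24 h. Lrg1 and Mmp25, chosen after their values were seen, stood at 0.282 (0.245 to 0.323) and 0.289 (0.2196 to 0.378).

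Several genes of the nonclassical, patrolling type of monocyte were higher in SASD 120 h. Of 19 nonclassical monocyte genes 6 were 2-fold or more higher, against 3.03% of all genes, and 1 was lower, with a median log2 ratio of 0.77. The summed level of the list went the other way, with 2359 CPM in SASD 120 h and 2673 CPM in SASD 24 h, so the count and the median describe the members and not the sum. Summed over 5 markers of both monocyte types, the level was 1009.9 CPM in SASD 120 h and 672 CPM in SASD 24 h. Ear2, a ribonuclease, had 25.9 CPM in SASD 120 h, against 9.64 CPM in SASD 24 h, a ratio of 2.69 (95% counting interval 2.04 to 3.59). Treml4, a receptor for dying cells, had 35.96 CPM in SASD 120 h, against 14.1 CPM in SASD 24 h, a ratio of 2.55 (2.03 to 3.24). The adhesion receptor Adgre4 stood at 2.33 (2.005 to 2.71), Cd300e at 2.35 (1.71 to 3.29), Pparg at 2.45 (1.28 to 5.08) and Ace, the angiotensin-converting enzyme, at 2.004 (1.81 to 2.22). Nr4a1, the nuclear receptor these cells need to form, had 95.7 CPM in SASD 120 h, against 50.04 CPM in SASD 24 h, and the chemokine receptor Cx3cr1 had 119 CPM in SASD 120 h, against 75.4 CPM in SASD 24 h. Cd36, a fatty acid and lipid receptor that platelets also carry, was the one lower by 2-fold, at 0.322 (0.292 to 0.355). Of the 19 genes 14 lay above the median of all genes and 5 below it, among the latter also Dusp16 at 0.531 and Itgal at 0.671. The number of higher genes was 10 with total-count scaling and 5 with upper-quartile scaling, against 9.96% and 1.71% of all genes.

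Ear2 was at 18.96 CPM in Con and 26.4, 17.5, 9.64, 38.7 and 25.9 CPM in SASD 6, 12, 24, 48 and 120 h, so SASD 24 h was the lowest of these libraries and SASD 120 h lay close to SASD 6 h. Treml4 was at 29.1 CPM in Con and 33.8, 23.1, 14.1, 51 and 35.96 CPM in SASD 6, 12, 24, 48 and 120 h. Adgre4 was at 47.03 CPM in Con and 61.9, 54.8, 34.3, 114 and 79.7 CPM in SASD 6, 12, 24, 48 and 120 h. In each of these genes SASD 48 h had the highest level of the 6 and SASD 24 h the lowest.

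Classical monocyte genes had a median of 0.36, with 1 of 20 genes 2-fold higher and 1 lower, shares near those of all genes. With total-count scaling 6 were higher and none lower, against 9.96% and 3.79% of all genes. With upper-quartile scaling 1 was higher and 2 were lower, against 1.71% and 8.2%. The one higher was Clec4a3, a lectin receptor with close copies, at 3.09 (2.54 to 3.79), and the one lower was Vcan, a matrix proteoglycan, at 0.407 (0.329 to 0.503). Ccr2, the receptor that lets these cells leave the marrow, had 351 CPM in SASD 120 h, against 231 CPM in SASD 24 h, and Ly6c2 had 94.5 CPM in SASD 120 h, against 53.1 CPM in SASD 24 h. Of 13 dendritic cell genes 3 were 2-fold higher and none lower, with a median of 0.40. Clec10a, a lectin of the conventional type, had 12.02 CPM in SASD 120 h, against 3.67 CPM in SASD 24 h, a ratio of 3.27 (2.104 to 5.29). Cd209a, a lectin of monocyte-derived dendritic cells, had 28.9 CPM in SASD 120 h, against 10.4 CPM in SASD 24 h, a ratio of 2.78 (2.13 to 3.67). Bst2, an interferon-stimulated gene of plasmacytoid cells, stood at 2.24 (1.77 to 2.85). The dendritic cell markers did not all go one way. The plasmacytoid marker Siglech had 42 counts in SASD 120 h, against 42 in SASD 24 h, a ratio of 0.614 (0.3904 to 0.964). Xcr1 was also lower at 0.657 (0.449 to 0.964), while Flt3 stood at 1.40 (1.06 to 1.87). Zbtb46, under the minimum, stood at 1.15 (0.622 to 2.22).

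**Figure D3:**
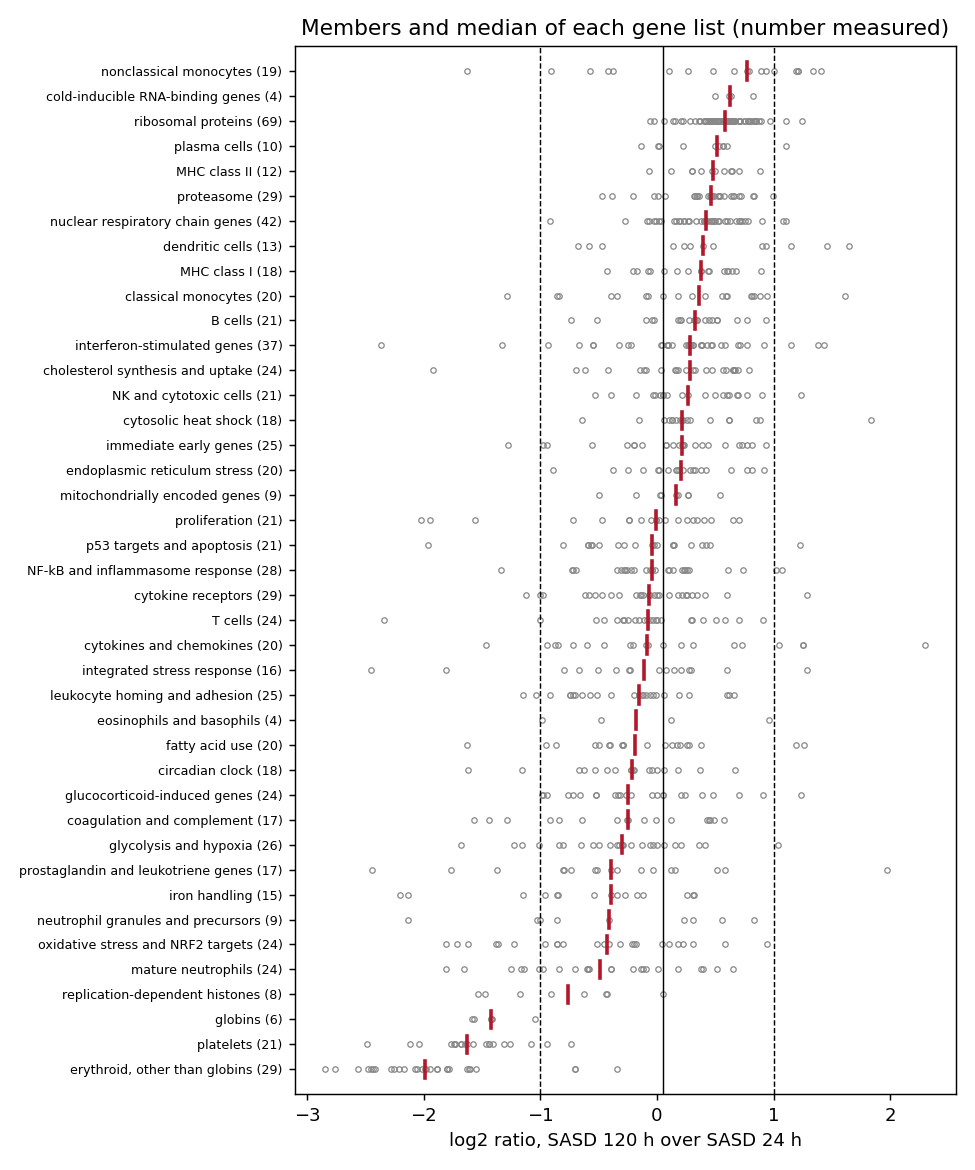
Log2 ratio of SASD 120 h over SASD 24 h (x axis) for the measured members of 41 gene lists (open circles, rows ordered by median), with the list median as a red bar, the median of all genes as a solid line at 0.05 and 2-fold as dashed lines. The erythroid, platelet and globin rows lie apart at the bottom with medians of -1.99, -1.62 and -1.42, and all other list medians lie between -0.76 and 0.77.

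Lymphocyte genes differed little. None of 21 B cell genes was past 2-fold, and the median was 0.32. Ms4a1, which encodes CD20, had 789.7 CPM in SASD 120 h, against 631 CPM in SASD 24 h, and Cd79a, a signalling chain of the B cell receptor, had 1085 CPM in SASD 120 h, against 761 CPM in SASD 24 h. Of 24 T cell genes 1 was 2-fold lower and none higher, with a median of -0.07. Cd4 had 99.5 CPM in SASD 120 h, against 126 CPM in SASD 24 h, and Cd8a had 125 CPM in SASD 120 h, against 94.9 CPM in SASD 24 h. Of 21 NK and cytotoxic genes the activating receptor Klra8 alone was 2-fold higher, at 2.37 (1.89 to 3.0), and the median was 0.27. Ncr1, which marks NK cells, stood at 1.06 (0.912 to 1.24). The other NK cell markers went both ways, with Gzma at 1.54 (1.40 to 1.69), Klrb1c at 0.762 (0.667 to 0.870) and Prf1 at 0.885 (0.791 to 0.991). In the plasma cell list, with a median of 0.52, the lambda light chain Iglc1 was 2-fold higher at 2.16 (1.85 to 2.52), though its copies share sequence.

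The lower T cell gene was Foxp3, the defining factor of regulatory T cells. It had 17 counts in SASD 120 h, against 59 in SASD 24 h, a ratio of 0.177 (95% counting interval 0.0966 to 0.307). Its level was 4.89 CPM in Con and 6.37, 9.66, 9.03, 2.99 and 1.596 CPM in SASD 6, 12, 24, 48 and 120 h, and SASD 120 h was the lowest of these 6 libraries. Il2ra, the interleukin 2 receptor chain that these cells carry, had 33 counts in SASD 120 h, against 42 in SASD 24 h, a ratio of 0.482 (0.296 to 0.779) that was just short of 2-fold once the prior count was added. Other genes linked to regulatory T cells were chosen after their values were seen and did not all go one way. Ikzf2 had 70 counts in SASD 120 h, against 127 in SASD 24 h, a ratio of 0.338 (0.249 to 0.456), and the chemokine receptor Ccr4 had 13 counts in SASD 120 h, against 37 in SASD 24 h, a ratio of 0.216 (0.105 to 0.415). Tnfrsf18 had 116 counts in SASD 120 h, against 28 in SASD 24 h, a ratio of 2.54 (1.67 to 3.99).

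Eosinophil and basophil genes were near the limit of detection, with 4 of 17 measured. Cpa3, a protease of basophils and mast cells, was under the minimum with 36 counts in SASD 120 h, against 1 in SASD 24 h, a ratio of 22.1 (95% counting interval 3.72 to 896). The other basophil markers were as sparse, with 7 counts of Mcpt8 in SASD 120 h against 1 in SASD 24 h, and 4 counts of Prss34 against 1.

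Of the 20 measured cytokine and chemokine genes 4 were 2-fold higher and 1 was lower, and the list's median of -0.08 lay below that of all genes in 12 of 13 settings and above it, at 0.08, when no minimum count was set. With upper-quartile scaling 3 were higher and 4 lower. Tnf, the tumour necrosis factor, had 58 counts in SASD 120 h, against 6 in SASD 24 h, which is 5.45 CPM in SASD 120 h, against 0.918 CPM in SASD 24 h. Its ratio was 5.93 (95% counting interval 2.57 to 16.8), and its level across the libraries was 5.44 CPM in Con and 6.56, 3.58, 0.918, 4.33 and 5.45 CPM in SASD 6, 12, 24, 48 and 120 h. SASD 24 h was the lowest of these libraries. The chemokine Ccl3 had 54 counts in SASD 120 h, against 13 in SASD 24 h, a ratio of 2.55 (1.37 to 5.09). Il18, processed by the inflammasome, had 50 counts in SASD 120 h, against 12 in SASD 24 h, a ratio of 2.56 (1.34 to 5.27). Ccl9, a chemokine of myeloid cells, had 73.1 CPM in SASD 120 h, against 35.3 CPM in SASD 24 h, a ratio of 2.07 (1.78 to 2.41). Il1b, the interleukin most tied to neutrophils and monocytes in this list, had 142 CPM in SASD 120 h, against 163 CPM in SASD 24 h, a ratio of 0.87 (0.804 to 0.942). Tgfb1, which platelets store, had 509.5 CPM in SASD 120 h, against 916 CPM in SASD 24 h, a ratio of 0.556 (0.536 to 0.577). The lower member was the platelet chemokine Ppbp described above. Il1rn, the antagonist of interleukin 1, had a ratio of 0.604 (0.503 to 0.724). Lymphotoxin genes Ltb and Lta had ratios of 1.66 (1.58 to 1.75) and 1.6 (1.17 to 2.22).

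Among 29 cytokine receptor genes Csf2ra, the receptor chain for GM-CSF, was 2-fold higher with 184 CPM in SASD 120 h, against 75.6 CPM in SASD 24 h, a ratio of 2.44 (2.21 to 2.698). Il1rap, the shared chain of the interleukin 1 receptors, was 2-fold lower at 0.457 (0.386 to 0.542). In the NF-kB and inflammasome list 2 of 28 were 2-fold higher, the protease Casp1 at 2.04 (1.704 to 2.46) and the survival gene Bcl2a1b, and the endotoxin co-receptor Cd14 was lower at 0.379 (0.2398 to 0.592). The medians of these lists were -0.07 and -0.04.

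**Figure D4:**
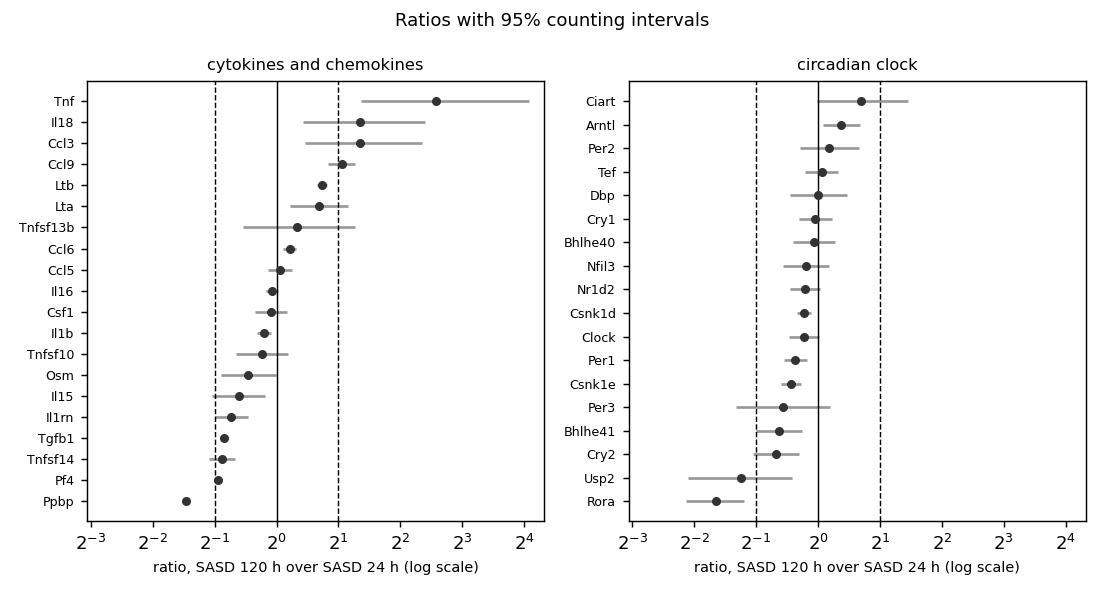
Ratio of SASD 120 h over SASD 24 h (x axis, log scale) for each measured cytokine or chemokine gene (left) and circadian clock gene (right); points are ratios without a prior count, bars their 95% counting intervals, and dashed lines mark 2-fold. Tnf stands at 5.93 with the widest interval of the left panel, and Rora at 0.318 is the lowest of the right panel.

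Interferon-stimulated genes did not move as 1 group. Of 37 measured genes 3 were 2-fold higher and 2 lower, and the median was 0.29. Ifi204, a DNA sensor with close copies, had 63.9 CPM in SASD 120 h, against 23.6 CPM in SASD 24 h, a ratio of 2.71 (95% counting interval 2.27 to 3.25). Ifi27l2a stood at 2.63 (2.12 to 3.28), and Bst2, which tethers virus particles, is given above. Rsad2, the antiviral enzyme viperin, had 653 CPM in SASD 120 h, against 3369 CPM in SASD 24 h, a ratio of 0.194 (0.188 to 0.199). Isg15, a ubiquitin-like modifier, had 24.97 CPM in SASD 120 h, against 62.9 CPM in SASD 24 h, a ratio of 0.397 (0.339 to 0.464). Irf7, a factor that drives interferon genes, had 103 CPM in SASD 120 h, against 94.3 CPM in SASD 24 h. Ifit3 stood at 1.71 (1.39 to 2.13) and Ifit1 at 0.684 (0.583 to 0.803).

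Rsad2 was at 119.8 CPM in Con and 2174, 1511, 3369, 92.8 and 653 CPM in SASD 6, 12, 24, 48 and 120 h, and Isg15 was at 7.36 CPM in Con and 53.5, 27.6, 62.9, 10.2 and 24.97 CPM in SASD 6, 12, 24, 48 and 120 h. Both were highest in SASD 24 h and low in Con and SASD 48 h, as the erythroid sum was, and the part of erythroid RNA in them was not tested. Ifi204 was at 16.8 CPM in Con and 39.6, 21.2, 23.6, 57.3 and 63.9 CPM in SASD 6, 12, 24, 48 and 120 h, with its highest level in SASD 120 h. MHC class II genes, which present antigen on B cells, dendritic cells and monocytes, had a median of 0.48, and 11 of 12 lay above the median of all genes without any past 2-fold. H2-Ab1 had 1539 CPM in SASD 120 h, against 989 CPM in SASD 24 h, a ratio of 1.56 (1.51 to 1.602), and Cd74, the invariant chain, had a ratio of 1.09 (1.07 to 1.11). MHC class I genes had a median of 0.38 with none of 18 past 2-fold, but B2m, their shared light chain, had a ratio of 0.745 (0.7295 to 0.761).

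The circadian clock list was measured 4 whole days apart in SASD time, although the clock time of sampling is not known. Of 18 measured clock genes none was 2-fold higher and 2 were lower, with a median of -0.21. Dbp, an output gene of the clock, had 9.95 CPM in SASD 120 h, against 9.95 CPM in SASD 24 h, a ratio of 1.001 (0.728 to 1.38). Arntl, which encodes the activator BMAL1, had 27.5 CPM in SASD 120 h, against 21.3 CPM in SASD 24 h, a ratio of 1.29 (1.05 to 1.59). Per1 and Per2, repressors of that activator, had ratios of 0.777 (0.685 to 0.883) and 1.14 (0.822 to 1.58). Nr1d2, which represses Arntl, had a ratio of 0.865 (0.735 to 1.02), and Nr1d1 had 21 counts in SASD 120 h, against 18 in SASD 24 h, under the minimum. Cry1 stood at 0.969 (0.805 to 1.17), Cry2 at 0.624 (0.481 to 0.809) and Ciart at 1.63 (0.993 to 2.75). The lower ones were Rora, an activator of Arntl that T cells also use, at 0.318 (0.228 to 0.439), and Usp2 at 0.422 (0.234 to 0.749). Among the clock genes named, counting intervals included 1 for Dbp, Per2, Nr1d2, Cry1 and Ciart, which does not show that their levels were alike.

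Genes that glucocorticoids induce had a median of -0.25, with 1 of 24 genes 2-fold higher and none lower. That gene was Gadd45b, which many stress signals induce, at 2.39 (1.82 to 3.18). Fkbp5, the chaperone that dampens the glucocorticoid receptor, had 35.2 CPM in SASD 120 h, against 59.8 CPM in SASD 24 h, a ratio of 0.588 (0.509 to 0.6797). Tsc22d3, which encodes the induced repressor GILZ, had 431 CPM in SASD 120 h, against 535 CPM in SASD 24 h, a ratio of 0.805 (0.7704 to 0.842). Fkbp5 was at 75.4 CPM in Con and 91.4, 121, 59.8, 40.4 and 35.2 CPM in SASD 6, 12, 24, 48 and 120 h, with its highest level in SASD 12 h and its lowest in SASD 120 h. Of 25 immediate early genes 1, Fosb, was 2-fold lower at 0.401 (0.276 to 0.578), and Fos had 51.2 CPM in SASD 120 h, against 101 CPM in SASD 24 h, a ratio of 0.507 (0.451 to 0.568). The median of that list was 0.21, and 17 of the 25 lay above the median of all genes. With total-count scaling 5 were 2-fold higher and none lower, against 9.96% and 3.79% of all genes.

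Of 18 cytosolic heat shock genes 1 was 2-fold higher, Hspa1b, an inducible HSP70 gene, with 88 counts in SASD 120 h, against 14 in SASD 24 h, a ratio of 3.86 (95% counting interval 2.18 to 7.34). Its near-identical copy Hspa1a had 28 counts in SASD 120 h, against 12 in SASD 24 h, a ratio of 1.43 (0.705 to 3.09). The constitutive Hspa8 and Hsp90aa1 had ratios of 1.15 (1.12 to 1.18) and 1.04 (0.992 to 1.09). None of 20 endoplasmic reticulum stress genes was past 2-fold, and their median was 0.21. The 4 cold-inducible RNA-binding genes had a median of 0.63, with Cirbp at 1.56 (1.38 to 1.75) and Rbm3 at 1.42 (1.3 to 1.55).

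In the prostaglandin and leukotriene list 1 of 17 genes was 2-fold higher and 3 were lower, with a median of -0.39. Hpgd, which inactivates prostaglandins, had 46.9 CPM in SASD 120 h, against 11.8 CPM in SASD 24 h, a ratio of 3.98 (95% counting interval 3.13 to 5.13). Ptgs2, the inducible cyclooxygenase, had 10 counts in SASD 120 h, against 40 in SASD 24 h, a ratio of 0.153 (0.0684 to 0.312). Ptgs1 and Tbxas1, the cyclooxygenase and thromboxane synthase of platelets, had ratios of 0.294 (0.265 to 0.326) and 0.385 (0.339 to 0.437). Hpgd was at 25.3 CPM in Con and 21.7, 16.8, 11.8, 26.4 and 46.9 CPM in SASD 6, 12, 24, 48 and 120 h, so it was highest in SASD 120 h and lowest in SASD 24 h. Ptgs2 was at 1.405 CPM in Con and 1.14, 0.7601, 6.12, 1.06 and 0.939 CPM in SASD 6, 12, 24, 48 and 120 h, and SASD 24 h was the 1 high library among these.

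The 15 highest genes were led by Slc15a2, a transporter of small peptides (chromosome 16, 36750177 to 36784962, mm10). It had 454 counts in SASD 120 h, against 37 in SASD 24 h, which is 42.6 CPM in SASD 120 h, against 5.66 CPM in SASD 24 h, a ratio of 7.53 (95% counting interval 5.38 to 10.8). Its level was 19.8 CPM in Con and 20.9, 14.4, 5.66, 30.2 and 42.6 CPM in SASD 6, 12, 24, 48 and 120 h, lowest in SASD 24 h and highest in SASD 120 h. Cyp27a1, a sterol hydroxylase, stood at 4.29 (3.29 to 5.66), the receptor phosphatase Ptpro at 4.07 (3.13 to 5.37), and Clec2d, a ligand of an NK cell receptor, at 4.03 (3.38 to 4.84). Aif1, a calcium-binding gene of macrophages, had 50 counts in SASD 120 h, against 6 in SASD 24 h, a ratio of 5.11 (2.19 to 14.6). Rhebl1, a small GTPase, stood at 4.87 (2.84 to 8.97). Xlr3b and Phf11d, which have close copies, stood at 6.75 (2.94 to 19.1) and 5.73 (2.47 to 16.3). The others of the 15 were Tnf, Hpgd, Gm48038, Snhg20, Mthfsl, Ifi211 and Tefm.

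Of the 15 lowest genes, 6 were in the erythroid or platelet lists (Slc4a1, Tent5c, Ank1, Epb42, Hemgn and Vwf). Among all 11104 measured genes, 35 were in the erythroid or globin lists and 21 in the platelet list. The lowest was Dusp8, a phosphatase of stress kinases, with 16 counts in SASD 120 h, against 88 in SASD 24 h, a ratio of 0.112 (95% counting interval 0.0611 to 0.191). Slc38a5, an amino acid transporter, had 19 counts in SASD 120 h, against 102 in SASD 24 h, a ratio of 0.114 (0.0661 to 0.188). Crispld2 had 59 counts in SASD 120 h, against 276 in SASD 24 h, a ratio of 0.131 (0.0973 to 0.174). Dusp8 was at 0.5497 CPM in Con and 4.57, 2.93, 13.5, 0.282 and 1.502 CPM in SASD 6, 12, 24, 48 and 120 h, and Crispld2 was at 12.9 CPM in Con and 41.5, 33.01, 42.2, 5.001 and 5.54 CPM in SASD 6, 12, 24, 48 and 120 h. Both had their highest level in SASD 24 h. Of all 714 lower genes 616 were in none of the lists, as were 10306 of the 11104 measured genes. The median level over the 714 was 21.6 CPM in Con and 47.5, 42.4, 65.3, 16.0 and 25.1 CPM in SASD 6, 12, 24, 48 and 120 h. For the 336 higher genes the medians were 10.3 CPM in Con and 10.4, 10.4, 6.58, 12.8 and 14.8 CPM in SASD 6, 12, 24, 48 and 120 h. These medians include the pair that chose the genes and are a description.

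The ratio also varied with exon length. Measured protein-coding genes in 4 equal groups by exon length had median log2 ratios of 0.34, 0.12, -0.02 and -0.15 from the shortest to the longest. The share 2-fold or more higher was 7.28% in the shortest group and 0.572% in the longest, while the share 2-fold lower was 6.29% and 6.79%. Across 10490 genes of this 1 pair the Spearman rho of exon length and log2 ratio was -0.35. Exon length was read from GENCODE release M21 for mm10. The 336 higher genes had a median exon length of 2087 bases, against 4522 bases for the 714 lower genes and 4464 bases for all measured genes.

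**Figure D5:**
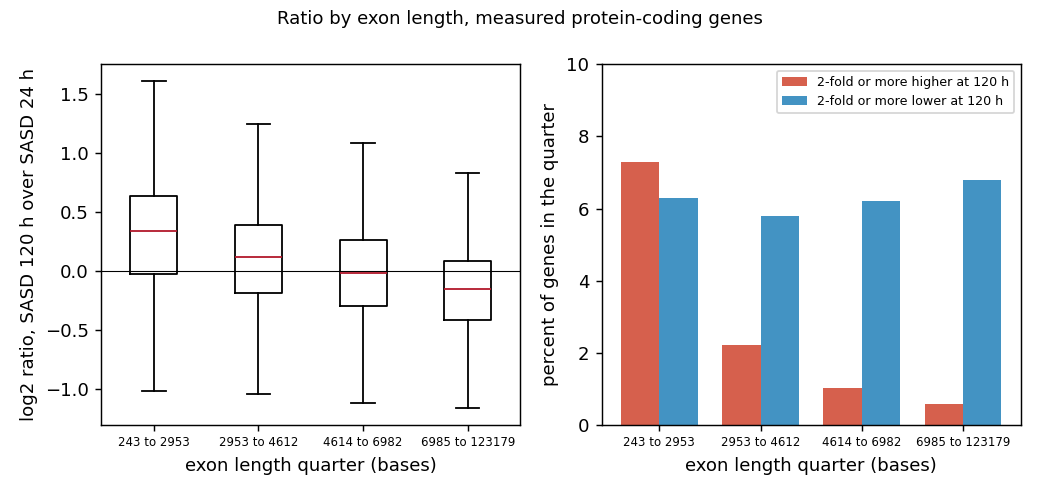
Measured protein-coding genes in 4 equal groups by exon length (x axis, bases): left, box plots of the log2 ratio of SASD 120 h over SASD 24 h (box, middle 50%; red line, median; whiskers, to the last gene within 1.5 box lengths); right, the percent of each group 2-fold or more higher (red) or lower (blue) in SASD 120 h. The median goes down from 0.34 to -0.15 with length, and the share of higher genes goes down from 7.28% to 0.572% while that of lower genes stays between 5.80% and 6.79%.

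Lists of short genes differed in direction. The globins had a median exon length of 714 bases and a median log2 ratio of -1.42, and the histones 1358 bases and -0.76. Of 69 ribosomal protein genes 67 were above the median of all genes, and their median log2 ratio was 0.58, or 0.28 once the median of each gene's length group was subtracted. They took 4.44% of all counts in SASD 120 h and 2.53% in SASD 24 h, while in Con they took 4.39% and in SASD 48 h 4.402%. Rps21 and Rps27, of the small ribosomal subunit, were 2-fold higher at 2.38 (2.18 to 2.603) and 2.16 (2.02 to 2.303). With total-count scaling 22 of the 69 were 2-fold higher, against 9.96% of all genes. Rps27 was at 784 CPM in Con and 268, 373, 183, 785 and 396 CPM in SASD 6, 12, 24, 48 and 120 h. Nuclear genes of the respiratory chain had a median of 0.42, or 0.08 after the same subtraction, and 2 of 42 were 2-fold higher, Uqcrb at 2.17 (1.69 to 2.82) and Cycs, cytochrome c, at 2.14 (1.66 to 2.799). Proteasome genes had a median of 0.47, or 0.19 after subtraction, with none of 29 past 2-fold. The 9 mitochondrially encoded genes had a median of 0.16 that turned to -0.18 after subtraction.

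The subtraction left the groups named next on their side. The median went to -2.22 for erythroid genes, -1.80 for platelet genes, -1.76 for globins and -0.73 for mature neutrophil genes. For nonclassical monocyte genes it went to 0.54, for dendritic cell genes to 0.44 and for interferon-stimulated genes to 0.18. The trend's share in single genes such as Tnf, with an exon length of 1639 bases, and Hpgd, with 1683 bases, was not tested.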

How the data were processed

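RNA sequencing of blood was used, 1 library a group, each from pooled RNA of 3 mice. Trimmomatic 0.39 for trimming, STAR 2.7.9a for alignment and the mm10 build are named in the submitters' processing notes. Counts were made by the authors with featureCounts 2.0.3, per the file headers, as pairs of reads on the exons of each gene, with no strand option and without reads shared between places or genes, so antisense, overlapping and near-identical genes are uncertain. The deposited table gave unnormalised counts of 32285 genes, 32158 of them with a symbol in the reference used here. Total counts ran from 7825120 to 27501393 over the 10 libraries.

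From these counts TMM factors over all 10 libraries were computed in edgeR 4.0.16 (R 4.3.3). Ratios of SASD 120 h over SASD 24 h were ratios of scaled CPM. Those of single genes had no prior count and a 95% interval from an exact conditional binomial (Clopper-Pearson; scipy 1.17.1, Python 3.11.15), as had shares of counts. Intervals cover counting error only and leave out differences between mice, pools and libraries. Read pairs carried no molecular identifiers as far as the labels say, so repeated copies of a molecule could make the intervals too narrow. Log2 ratios with a prior count of 2 served ranking, list medians and counts past 2-fold among genes that averaged 25 counts or more over both libraries. The computation was tested on simulated data. No p-value is given, because no group had a second library.

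There were 41 lists with 991 entries, of which 990 matched; Ahsp was not analysed here. The members and lists were chosen with earlier results of these data known. Genes named were the 15 highest and 15 lowest, the first 3 of each list in its own order and its 2 highest and 2 lowest members, every measured globin, clock and cytokine gene (some of the last 2 only in the plot of their ratios), and cell type markers; others were chosen after their values were seen. Promoter sequences came from RefSeq on GRCm38.p6, and gene positions and exon lengths from GENCODE release M21. Alternatives were other scalings (including DESeq2 1.42.0 size factors), other count minimums (10, 100 or none) and other prior counts (0.5 and 5). Some single-gene results are not reported here.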

Additional observations from a re-analysis of the deposited data

How the results depend on the processing

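All alternatives were run on the same pair, and 2 of the 12 (totals without globin, erythroid and platelet list genes, and subtraction of the length group median) were chosen after seeing the data. The 336 genes 2-fold or more higher became 1106 with total counts, 917 with totals without globins, 750 with totals without globin, erythroid and platelet list genes, 190 with upper-quartile scaling, 193 after subtraction of the length group median, 170 with a minimum mean count of 100 and 1004 with no minimum. The 714 lower genes became 421 with total counts, 463 with totals without globins and 1782 with no minimum. The other alternatives gave 280 to 488 higher and 502 to 910 lower genes, within 1.5 times the main count. The number of genes whose whole counting interval lay past 2-fold was 522, and 429 to 635 under the alternatives that gave one. Against the median of all genes, list medians kept their side in all 13 settings except for granule and precursor genes, eosinophil and basophil genes, cytokines and mitochondrially encoded genes. Scaling shifts ratios of all genes together, by -0.16 with upper quartiles and 0.33 with total counts on the log2 scale; the cause of the length trend was not tested. No paired analysis was possible because each group had a single library and the labels give no replicate numbers. At these depths a gene under the minimum, such as Cpa3 with 1 count in SASD 24 h, has an interval that spans more than 2 orders of magnitude.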

Other observations

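Metabolic lists went different ways. Of 26 glycolysis and hypoxia genes 4 were 2-fold or more lower and 1 was higher, with a median log2 ratio of -0.30. Hk1, the hexokinase that red cells also use, had 209 CPM in SASD 120 h, against 489.8 CPM in SASD 24 h, a ratio of 0.427 (0.404 to 0.451). The glucose transporters differed. Slc2a1 had 38.96 CPM in SASD 120 h, against 42.7 CPM in SASD 24 h, a ratio of 0.913 (0.782 to 1.07), while Slc2a3 was the lowest member of the list at 0.312. With total-count scaling 1 of the 26 was 2-fold lower. The 24 cholesterol genes had a median of 0.28, and the synthesis gene Hmgcs1 stood at 1.58 (1.32 to 1.91). Of 20 fatty acid genes 2 were higher and 1 was lower (median -0.18). Of 25 homing and adhesion genes 2 were lower and none higher (median -0.16), the integrin chain Itgb1 at 0.453 (0.437 to 0.469) and the hyaluronan receptor Cd44 at 0.487 (0.466 to 0.508), and with total-count scaling none was past 2-fold. Of 16 integrated stress response genes 1 was higher and 2 were lower (median -0.11).

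Single genes picked because they were high in SASD 120 h, which says nothing of their classes, were Gas5, Snhg5, Snrpg and Snrpe. Gas5, a host of small nucleolar RNAs, had 133 CPM in SASD 120 h, against 57.5 CPM in SASD 24 h, a ratio of 2.31 (2.06 to 2.59), and Snhg5, another such host, had a ratio of 2.397 (1.71 to 3.43). The splicing ring genes Snrpg and Snrpe had ratios of 2.27 (1.797 to 2.897) and 2.305 (1.79 to 2.998). Gas5 was at 134 CPM in Con and 101, 126, 57.5, 127 and 133 CPM in SASD 6, 12, 24, 48 and 120 h, so SASD 24 h was the low library. Exon lengths were 3760 bases for Gas5, 1730 for Snhg5, 1570 for Snrpg and 1372 for Snrpe, against a median of 4464 for all measured genes, and the part of the length trend in their ratios was not tested.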
